A study of Mus musculus with 26 samples.

Results

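The comparison described here sets the forelimbs of mouse embryos that lack both copies of Hic1 beside those of embryos that keep 1 copy, at stage E13.5. It holds 6 of the 26 RNA sequencing libraries of the series, 3 labelled Hic1 -/- (KO) and 3 labelled Hic1 +/- (HET). These are the conventional KO and HET groups, and they were taken by their labelled genotype. The 3 conventional wild type libraries (WT, labelled Hic1 +/+) are given beside them as values. The same contrast exists under a conditional strategy, with 7 KO libraries (PxCre; Hic1 f/f), 5 HET libraries (PxCre; Hic1 f/+) and 5 controls (Hic1 f/+ without Cre). There a Cre recombinase driven by Prrx1, which acts in limb bud mesenchyme and not in most blood, nerve or vessel cells of the limb, removes the floxed alleles. Neither the part of Hic1 that was removed nor the mouse strain is given in the labels, and the labels do not say whether libraries are single embryos or pools, nor how many litters they come from. The p-values therefore measure the spread between these libraries alone.

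HIC1 (hypermethylated in cancer 1) is a zinc finger protein that binds GC-rich response elements and represses transcription through partners such as CtBP and the NuRD complex. In the developing limb and in adult connective tissue Hic1 is known as a gene of mesenchymal progenitors, the fibroblast-like cells that lie between and around tendon, muscle and cartilage. Losing a repressor would be read in the levels of other genes, and the comparison of KO with HET asks what the loss of the second copy adds.

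Levels are in FPKM, a unit that divides the fragments of a gene by its transcript length and by the total mapped in that library. Without read counts the sequencing depth stays unknown. The summed FPKM ran from 411300 to 490248 over the 6 libraries, and 16785 to 17215 genes were above 0. KO replicate 1 stood apart: over the tested genes its median correlation with the other conventional libraries was 0.867, where the other 8 libraries had 0.970 to 0.984. In that library short transcripts were high and long transcripts low. Over the 3151 shortest transcripts, up to 2226 bases, its log2 values differed from those of KO replicates 2 and 3 by a median of 0.40. Over the 3149 longest, from 4893 bases, the median was -0.46. HET replicate 1 differed from the other HET libraries by medians of 0.12 and -0.03 over the same genes. The sexes were not balanced either. Xist, the RNA that coats the inactive X, stood at 0.0129, 164 and 202 FPKM in KO libraries and at 108, 0.104 and 0.152 FPKM in HET libraries. The Y-linked gene Kdm5d stood at 3.67, 0.00993 and 0 FPKM in KO libraries and at 0, 13.2 and 14.5 FPKM in HET libraries. Replicate 1 of each genotype carries other letters in its column name than replicates 2 and 3, and what the letters stand for is not given. With the letters as a batch term Hic1 was the only gene called, and 796 genes (6.29%) had an unadjusted p under 0.05, 281 higher (2.22%) and 515 lower (4.07%). For most gene lists the counts without KO replicate 1 are therefore given too. Leaving it out keeps only KO libraries with Xist, at 164 and 202 FPKM, so the sexes are less balanced in those counts.

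Hic1 itself fell in the KO forelimbs. It had 2.56, 1.30 and 1.23 FPKM in KO libraries, against 37.3, 32.2 and 30.9 FPKM in HET libraries and 64.2, 49.1 and 56.2 FPKM in WT libraries. The 3 groups did not overlap, and the KO mean was 5.07% of the HET mean and 3.00% of the WT mean. The log2 fold change of KO over HET, on the log2(FPKM + 1) scale, was -3.71 with an SE of 0.22 and an adjusted p of 0.0250 (limma, Benjamini-Hochberg over all tested genes). The exact two-sided permutation test over the 6 libraries gave p = 0.1, the smallest that 3 against 3 allows. Without KO replicate 1 the log2 fold change of Hic1 was -3.92 and the adjusted p 4.71e-04. The call of Hic1 at an adjusted p under 0.05 did not hold when any of the other 5 libraries was left out, with adjusted p between 0.0632 and 0.454, while its fold change stayed between -3.76 and -3.58. Hic1 lies on chromosome 11 at 75164565 to 75169519 of mm10, minus strand. Which part of the transcript remained in KO libraries cannot be read from one value per gene.

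Hic1 was the only gene called. The test covered 12662 genes that averaged 1 FPKM or more across the 6 libraries. Of these 1 was called lower, which is 0.00790% of the genes tested, and 0 were called higher. Fold changes were positive for 5875 and negative for 6787 of all tested genes, and for 6180 and 6479 without KO replicate 1. The sign counts of the gene lists below stand beside these numbers. An unadjusted p under 0.05 was reached by 277 genes, 2.19% of those tested, of which 66 were higher (0.521%) and 211 lower (1.67%) in KO. With the replicate numbers as a block 445 genes (3.51%) did so, 100 higher (0.790%) and 345 lower (2.72%), and Hic1 was again the only gene called (adjusted p 0.0284). Genes whose 3 KO values all lay on one side of their 3 HET values numbered 1251, 9.88% of those tested, with 476 above (3.76%) and 775 below (6.12%). Without KO replicate 1 an unadjusted p under 0.05 was reached by 863 genes (6.82%), 159 higher (1.26%) and 704 lower (5.56%). Then 2919 genes (23.1%) had no overlap, 1029 above (8.13%) and 1890 below (14.9%), and Hic1 was again the only call. The genes named below other than Hic1 were therefore not called, and their values are a description of these libraries. The 24 with the smallest p among genes with no overlap, 12 on each side, are taken first, then the gene lists. The lists and their members were chosen with earlier results of these data known. Their counts beside the shares over all tested genes are therefore no independent evidence.

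**Figure D1:**
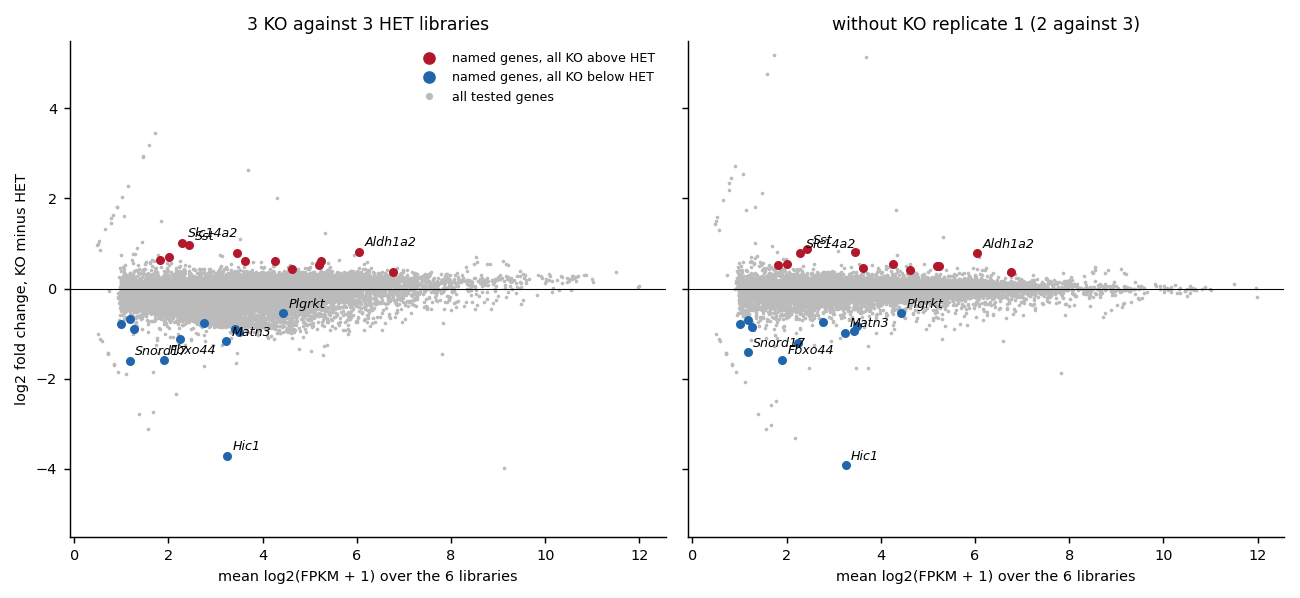
Log2 fold change of KO over HET (vertical axis) against mean log2(FPKM + 1) over the 6 libraries (horizontal axis) for the 12662 tested genes, with all 6 libraries on the left and without KO replicate 1 on the right. Named genes are red where all KO values lay above HET and blue where they lay below. Hic1 lies far from the other named genes, and the grey cloud reaches further down than up on the left and is narrower on the right.

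Among the genes with KO values above HET, Sst, Pcp4 and Slc14a2 were also called higher in the conditional KO, as was Smg6, which is not among these 12. Sst encodes somatostatin, a peptide hormone that inhibits secretion by other cells, and lies on chromosome 16 at 23889573 to 23890958. Pcp4 encodes a small calmodulin-binding protein and lies on the same chromosome at 96467606 to 96525793. The 250 bases before the RefSeq start of both genes (GRCm38.p6) are shown because these genes had higher KO values in both strategies. Capitals mark GGCA or its reverse complement TGCC, the centre of the HIC1 response element.
Sst, chr16:23890845-23891094, minus strand: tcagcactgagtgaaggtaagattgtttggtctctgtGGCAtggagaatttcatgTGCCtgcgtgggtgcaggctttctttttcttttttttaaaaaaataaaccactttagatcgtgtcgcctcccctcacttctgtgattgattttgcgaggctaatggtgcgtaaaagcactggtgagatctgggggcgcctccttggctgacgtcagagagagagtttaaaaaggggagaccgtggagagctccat
Pcp4, chr16:96467356-96467605, plus strand: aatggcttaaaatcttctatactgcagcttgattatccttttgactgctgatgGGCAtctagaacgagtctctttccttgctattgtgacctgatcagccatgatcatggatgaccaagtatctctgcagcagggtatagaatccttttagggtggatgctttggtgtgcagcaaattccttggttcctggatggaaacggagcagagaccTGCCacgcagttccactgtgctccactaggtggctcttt

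Each of these windows holds GGCA at 2 places, counting both strands, which is also the median over all 32851 promoter windows of that length, and 88.2% of all windows hold it at least once. The longer form GGGCANCC, searched on both strands, stands in 4.53% of all windows. It was found for 0 of the 10 genes with a window among the 12 named genes with higher KO values, and for 3 of the 9 with a window among the 12 with lower KO values, namely Col10a1, Fbxo44 and Plgrkt. A match is a stretch of letters and not evidence of binding, and the absence of one says nothing of HIC1 outside these windows.

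Sst had 7.53, 6.04 and 6.20 FPKM in KO libraries, against 2.73, 2.69 and 3.28 FPKM in HET libraries and 3.75, 2.46 and 3.76 FPKM in WT libraries. Every KO value lay above every HET and WT value, while HET and WT overlapped. Its difference of KO over HET was 0.96 on the log2 scale (SE 0.15, adjusted p 0.804, limma), and 0.87 without KO replicate 1. Pcp4 had 13.2, 13.7 and 13.7 FPKM in KO libraries, against 6.88, 6.44 and 8.93 FPKM in HET libraries and 4.22, 4.86 and 4.08 FPKM in WT libraries. Here the 3 genotypes followed each other without overlap, with HET between KO and WT. For Pcp4 KO over HET came to 0.80 on the log2 scale (SE 0.16, adjusted p 0.804), and 0.82 without KO replicate 1. Slc14a2, a urea transporter gene on chromosome 18 at 78146148 to 78596942, had 8.56, 5.07 and 4.83 FPKM in KO libraries, against 3.26, 1.91 and 2.26 FPKM in HET libraries and 1.70, 1.15 and 1.85 FPKM in WT libraries. On the log2 scale Slc14a2 differed by 1.02 (SE 0.26, adjusted p 0.804), and 0.79 without KO replicate 1, which held the highest value.

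The retinoic acid genes Aldh1a2 and Cyp26b1 were among the same 12. Retinoic acid is made from retinaldehyde by ALDH1A2 and broken down by CYP26B1, and a low level of it in the distal limb bud is known to be needed for cartilage to form. Aldh1a2 had 90.7, 90.3 and 79.5 FPKM in KO libraries, against 57.0, 36.1 and 56.4 FPKM in HET libraries and 42.5, 39.1 and 39.1 FPKM in WT libraries. Its log2 fold change of KO over HET was 0.82 with an SE of 0.20. Cyp26b1 had 53.4, 45.7 and 38.6 FPKM in KO libraries, against 31.0, 26.8 and 30.6 FPKM in HET libraries and 28.9, 25.8 and 27.98 FPKM in WT libraries, with a log2 fold change of 0.61 (SE 0.15). For the maker and the breaker of retinoic acid alike, every KO value lay above every HET and WT value. The retinaldehyde-forming enzyme gene Rdh10 and a second synthesis gene, Aldh1a3, lay the other way, with means of 31.2 ± 2.16 against 40.5 ± 3.97 FPKM for Rdh10 and 3.37 ± 0.164 against 4.77 ± 0.245 FPKM for Aldh1a3, KO against HET (SD, n = 3 each). Of 13 tested retinoic acid genes 9 had a positive and 4 a negative fold change, beside 5875 and 6787 of all tested genes. Without overlap 4 lay above and 3 below, beside 3.76% and 6.12% of all tested genes, and 0 were called. With KO replicate 1 left out, 4 lay above and 5 below, beside 8.13% and 14.9%. The list median was 0.22 with all 6 libraries and 0.02 without KO replicate 1, beside -0.03 and -0.00 over all tested genes.

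The other 7 genes on the higher side had log2 fold changes between 0.38 and 0.70. Car14, a membrane carbonic anhydrase, had 24.5, 24.6 and 19.1 FPKM in KO libraries, against 15.7, 13.8 and 14.1 FPKM in HET libraries and 11.5, 12.6 and 11.1 FPKM in WT libraries, so that HET again lay between without overlap. Cbln1, a secreted synapse organiser of the cerebellum, averaged 3.44 ± 0.692 FPKM in KO and 1.84 ± 0.146 FPKM in HET libraries (SD, n = 3 each). Draxin, an axon guidance protein and Wnt antagonist, averaged 4.21 ± 1.04 FPKM in KO and 2.17 ± 0.353 FPKM in HET libraries. Pianp, Osgep and Asrgl1 had log2 fold changes of 0.52, 0.43 and 0.62, and for each of these 3 genes 1 WT value lay within the KO range. Pianp, for instance, had 44.0, 44.8 and 40.0 FPKM in KO libraries, against 30.6, 31.0 and 27.5 FPKM in HET libraries and 31.2, 39.4 and 44.0 FPKM in WT libraries. Hoxa11os, which is transcribed against Hoxa11 and overlaps it, had 125, 127 and 116 FPKM in KO libraries, against 94.7, 92.1 and 95.5 FPKM in HET libraries, a log2 fold change of 0.38. Whether reads were assigned by strand is not given in the sources used here, so the reads of this pair may be mixed.

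**Figure D2:**
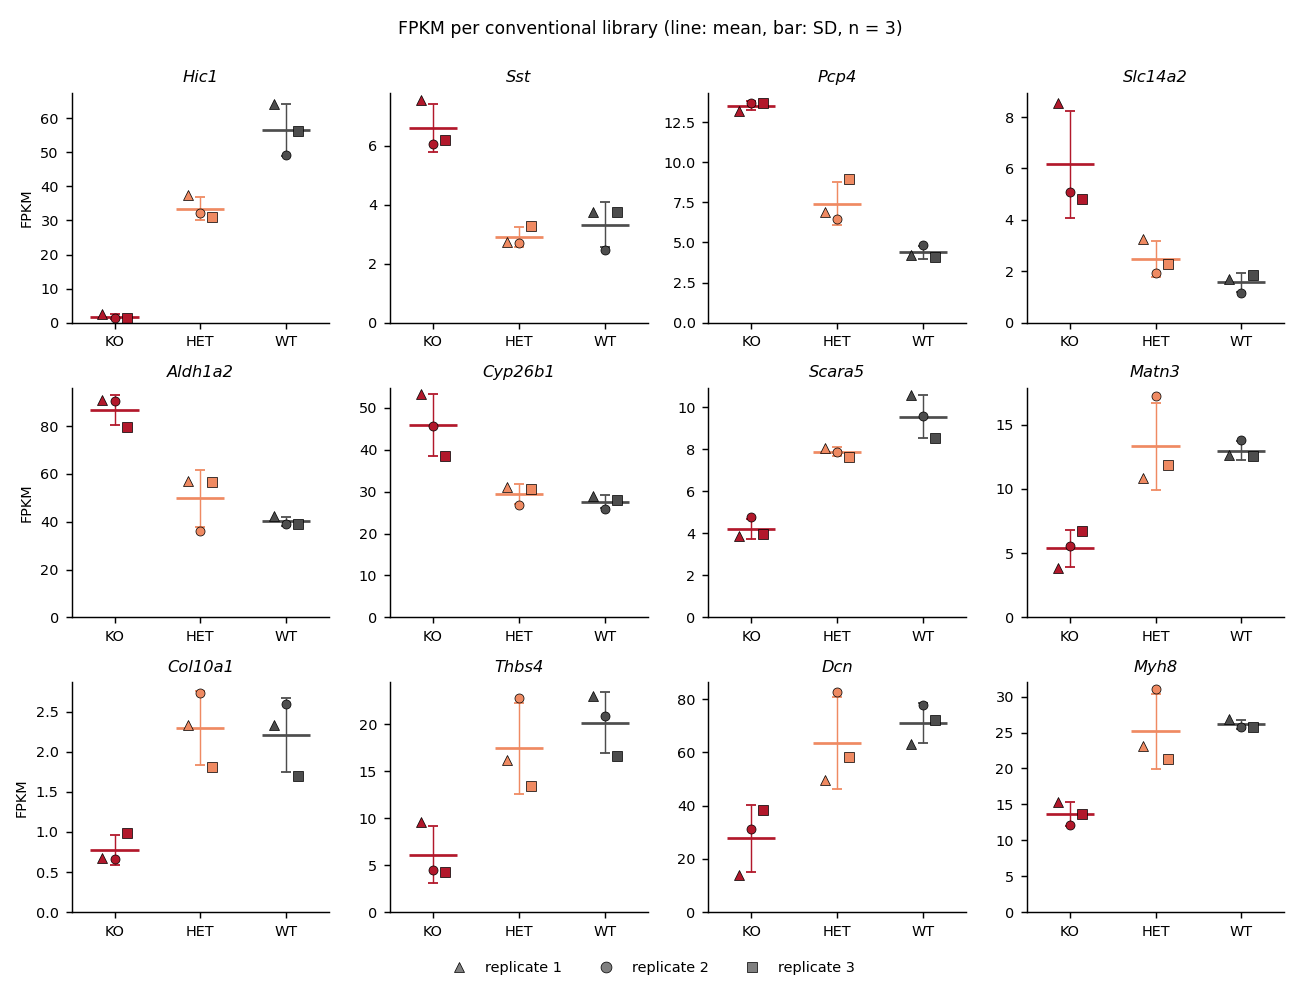
FPKM (vertical axes) of 12 genes in each conventional library, with KO left, HET in the middle and WT right. Symbols mark the replicate number, lines the mean and bars the SD (n = 3). In all 12 panels the KO values do not overlap the HET values, and for Hic1, Pcp4, Slc14a2 and Scara5 the HET values lie between KO and WT.

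On the lower side the 12 genes included several of connective tissue, cartilage and bone. In these bulk samples fewer cells of a type and less RNA per cell cannot be told apart. Scara5, a ferritin receptor known as a marker of fibroblast progenitors, had 3.89, 4.77 and 3.95 FPKM in KO libraries, against 8.08, 7.89 and 7.65 FPKM in HET libraries and 10.6, 9.57 and 8.53 FPKM in WT libraries. The 3 genotypes did not overlap, and its log2 fold change of KO over HET was -0.77, with an SE of 0.14. Prss35, a serine protease-like secreted protein, had 5.68, 7.85 and 8.003 FPKM in KO libraries, against 14.3, 16.9 and 13.4 FPKM in HET libraries and 18.0, 17.8 and 16.7 FPKM in WT libraries, a log2 fold change of -0.96. Thbs2, a thrombospondin of collagen-rich matrix, had 7.41, 6.85 and 6.33 FPKM in KO libraries, against 13.47, 17.0 and 10.95 FPKM in HET libraries, a log2 fold change of -0.89. Its KO values lay close together while HET replicate 2 was the highest of the 6.

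Col10a1, Panx3 and Matn3 are skeletal genes. Col10a1, the collagen of hypertrophic chondrocytes, had 0.677, 0.659 and 0.993 FPKM in KO libraries, against 2.33, 2.73 and 1.81 FPKM in HET libraries and 2.34, 2.59 and 1.70 FPKM in WT libraries. Panx3, a channel protein of late chondrocytes and osteoblasts, had 2.64, 1.60 and 2.48 FPKM in KO libraries, against 5.07, 8.04 and 5.18 FPKM in HET libraries. Matn3, a matrilin of cartilage matrix, had 3.87, 5.55 and 6.74 FPKM in KO libraries, against 10.9, 17.2 and 11.8 FPKM in HET libraries and 12.6, 13.8 and 12.5 FPKM in WT libraries. The log2 fold changes of KO over HET were -0.89 for Col10a1, -1.12 for Panx3 and -1.16 for Matn3, with SEs of 0.16, 0.23 and 0.25.

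The remaining lower genes have no common role. Calca, the calcitonin and CGRP gene of sensory neurons, had 0.506, 0.453 and 0.621 FPKM in KO libraries, against 1.33, 1.80 and 1.79 FPKM in HET libraries. Slc35f3, a solute carrier gene, averaged 0.788 ± 0.0719 FPKM in KO and 1.87 ± 0.244 FPKM in HET libraries, and Plgrkt, a plasminogen receptor, 16.9 ± 0.460 FPKM in KO and 25.0 ± 1.75 FPKM in HET libraries (SD, n = 3 each). Fbxo44, an F-box protein of ubiquitin ligases, had 1.16, 1.04 and 1.31 FPKM in KO libraries, against 9.20, 3.79 and 4.58 FPKM in HET libraries, but 4.97, 0.778 and 0.348 FPKM in WT libraries, so that 2 WT libraries lay under KO. The small nucleolar RNA gene Snord17 was listed at 0, 0 and 1.18 FPKM in KO libraries, against 3.43, 3.12 and 2.32 FPKM in HET libraries and 0, 2.17 and 1.07 FPKM in WT libraries. Snord17 has no polyA tail, and its WT values overlap those of KO.

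**Figure D3:**
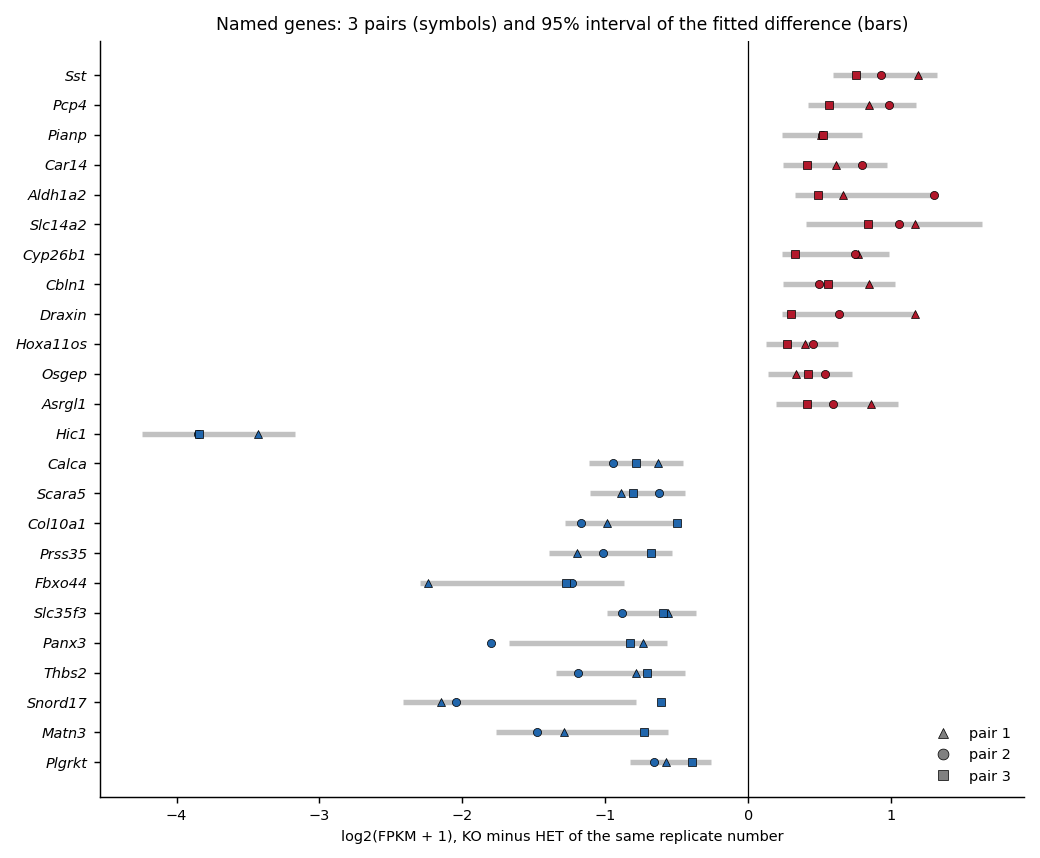
KO minus HET on the log2(FPKM + 1) scale for each pair of libraries with the same replicate number (symbols) and the 95% interval of the fitted difference (grey bars) for the 24 named genes. All 3 pairs lie on the same side of 0 for each gene, which the choice of genes without overlap fixes, and the pairs of Fbxo44, Panx3 and Snord17 lie furthest apart.

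Several tendon genes had lower KO values, while the transcription factor Scx overlapped. Of 10 tested tendon genes 7 had a negative fold change, beside 6787 of all 12662 tested genes. Without overlap 5 lay below HET and 0 above, beside 6.12% and 3.76% of all tested genes, and 0 were called. The list median was -0.52, and -0.41 without KO replicate 1, where 7 lay below, beside 14.9% of all tested genes. Thbs4, a thrombospondin of tendon and muscle attachment, had 9.62, 4.45 and 4.28 FPKM in KO libraries, against 16.2, 22.8 and 13.4 FPKM in HET libraries, or -1.42 on the log2 scale with an SE of 0.33. Without KO replicate 1, the highest of the KO libraries, it was -1.75. Tnmd, the gene of tenomodulin, a membrane protein of mature tendon cells, had 3.44, 3.81 and 4.92 FPKM in KO libraries, against 9.96, 18.3 and 7.01 FPKM in HET libraries, a log2 fold change of -1.25. Scx, the transcription factor that marks tendon progenitors, had 82.4, 52.998 and 47.3 FPKM in KO libraries, against 61.3, 52.9 and 54.2 FPKM in HET libraries, and the groups overlapped.

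Among matrix genes of connective tissue most fold changes were negative. Of 10 tested small leucine-rich proteoglycan genes, whose products organise collagen fibrils, 9 had a negative fold change and 1 lay below without overlap, beside 6.12% of all tested genes, and 4 without KO replicate 1, beside 14.9%. The 1 gene was Dcn, which encodes decorin, with 13.96, 31.1 and 38.4 FPKM in KO libraries, against 49.5, 82.8 and 58.4 FPKM in HET libraries and 63.1, 77.8 and 72.0 FPKM in WT libraries. KO replicate 1 was the lowest, and the log2 fold change of Dcn was -1.24 with it and -0.83 without it. For Lum, which encodes lumican, 21.3, 70.9 and 85.6 FPKM in KO libraries stood against 74.3, 130 and 94.1 FPKM in HET libraries, so that the fold change of -0.92 became -0.31 without KO replicate 1. The list median was -0.87 with 6 libraries and -0.53 with 5. Of 13 tested connective tissue collagens 12 had a negative fold change and 4 lay below without overlap, beside 6.12% of all tested genes, with a list median of -0.41, and -0.47 without KO replicate 1. Col12a1, a fibril-associated collagen, had 43.3, 50.3 and 51.6 FPKM in KO libraries, against 67.5, 74.7 and 64.1 FPKM in HET libraries, and Col5a2, a chain of collagen V, averaged 103 ± 12.7 FPKM in KO and 142 ± 9.90 FPKM in HET libraries (SD, n = 3 each). For Col1a1 the KO values of 615, 329 and 315 FPKM and the HET values of 476, 549 and 398 FPKM overlapped through KO replicate 1, and without it all 13 collagens lay below HET, beside 14.9% of all tested genes. Of 19 elastic fibre and other matrix genes 2 lay below without overlap, and 12 without KO replicate 1. One of the 2, Egfl6, an EGF repeat protein of basement membranes, had 9.33, 18.0 and 20.4 FPKM in KO libraries, against 26.7, 32.7 and 31.4 FPKM in HET libraries.

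All 22 tested contractile muscle genes had a negative fold change, 6 of them lay below HET without overlap, beside 6.12% of all tested genes, and 0 were called. In the 5 libraries other than KO replicate 1, 18 lay below, beside 14.9%. Myh8, the perinatal myosin heavy chain, had 15.4, 12.1 and 13.6 FPKM in KO libraries, against 23.2, 31.0 and 21.3 FPKM in HET libraries and 26.9, 25.7 and 25.8 FPKM in WT libraries, or -0.82 on the log2 scale with an SE of 0.18. Tnnt3, the troponin T of fast fibres, had a log2 fold change of -0.60 and Casq2, the calsequestrin that stores calcium, one of -0.41. The embryonic myosin gene Myh3 had 116, 88.8 and 95.7 FPKM in KO libraries, against 119, 143 and 119 FPKM in HET libraries. The summed list stood at 1987, 1213 and 1246 FPKM in KO libraries, against 1686, 1987 and 1552 FPKM in HET libraries, with KO replicate 1 as high as the highest HET library. The list median was -0.31, and -0.44 without KO replicate 1, where 17 of the 22 genes reached an unadjusted p under 0.05 beside 5.56% of all tested genes in that direction. Of 9 tested regulators that make muscle cells 0 were without overlap with all 6 libraries, and without KO replicate 1, 1 lay above and 3 below. Myod1 had 62.5, 33.8 and 31.3 FPKM in KO libraries, against 40.2, 35.4 and 32.6 FPKM in HET libraries.

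Of 18 tested cartilage genes 17 had a negative fold change, 4 lay below without overlap, beside 6.12% of all tested genes, and 0 were called. Without KO replicate 1, 12 lay below and 1 above, beside 14.9% and 8.13%, 11 had an unadjusted p under 0.05 in the lower direction, beside 5.56%, and the list median was -0.41 in place of -0.30. The 4 were Matn3, Lect1, which encodes chondromodulin and keeps vessels out of cartilage, and Col11a1 and Col9a1, chains of collagens XI and IX. Lect1 had 33.9, 30.7 and 35.9 FPKM in KO libraries, against 47.6, 83.9 and 60.6 FPKM in HET libraries and 63.0, 75.1 and 69.9 FPKM in WT libraries. Col11a1 had 55.97, 79.1 and 83.2 FPKM in KO libraries, against 92.1, 135 and 111 FPKM in HET libraries. Col9a1 had 128, 130 and 126 FPKM in KO libraries, against 151, 180 and 154 FPKM in HET libraries. The defining genes Sox9 and Col2a1 overlapped with all 6 libraries, but not without KO replicate 1, where Sox9 lay above HET and Col2a1 below. Sox9, the master regulator of cartilage, had 56.2, 73.8 and 79.3 FPKM in KO libraries, against 67.7, 67.8 and 72.1 FPKM in HET libraries. Col2a1, the main cartilage collagen, had 937, 552 and 478 FPKM in KO libraries, against 574, 720 and 612 FPKM in HET libraries, with the highest value in KO replicate 1. Of 10 genes of hypertrophic cartilage and early bone 3 lay below without overlap and 0 above, with a list median of 0.02. With KO replicate 1 left out, 5 lay below and the median was -0.15. Among 8 tested genes of the joint interzone 0 lay apart, and 2 lay below without KO replicate 1. Gdf5, which defines that list, had 74.8, 47.0 and 47.3 FPKM in KO libraries, against 54.9, 43.8 and 46.5 FPKM in HET libraries.

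Among transcription factors of connective tissue fibroblasts Osr1, a marker of irregular connective tissue, had 68.8, 61.3 and 55.6 FPKM in KO libraries, against 63.4, 58.7 and 56.8 FPKM in HET libraries. Pdgfra, a receptor on mesenchymal progenitors, had 76.3, 140 and 128 FPKM in KO libraries, against 133, 126 and 133 FPKM in HET libraries, with the low value in KO replicate 1. Meox1, a homeobox gene of somites and connective tissue, had 8.42, 6.04 and 6.21 FPKM in KO libraries, against 10.2, 11.2 and 8.71 FPKM in HET libraries, a log2 fold change of -0.49. Foxf2, a forkhead gene of mesenchyme, averaged 3.00 ± 1.22 FPKM in KO and 5.22 ± 1.14 FPKM in HET libraries, with overlap. Of the 19 fibroblast factors 12 had a negative fold change, beside 6787 of all 12662 tested genes. Without overlap 1 lay above and 3 below, beside 3.76% and 6.12% of all tested genes. Without KO replicate 1, 4 lay above and 6 below, beside 8.13% and 14.9%. The list median was -0.31, and 0.06 without KO replicate 1. Of 9 tested progenitor surface markers 7 had a negative fold change and 2 lay below without overlap, beside 6.12%. Without KO replicate 1, 3 lay below, beside 14.9%. Vcam1, an adhesion molecule, had 31.7, 41.6 and 44.5 FPKM in KO libraries, against 56.4, 50.7 and 49.3 FPKM in HET libraries. Ly6a, a marker of adult progenitors, stood under 0.31 FPKM in all 6 libraries.

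Patterning genes of the limb bud included some above and some below HET. Of 24 tested patterning factors 15 had a positive fold change, beside 5875 of all 12662 tested genes. Without overlap 6 lay above and 2 below, beside 3.76% and 6.12% of all tested genes, and 0 were called. In the 5 libraries other than KO replicate 1, 9 lay above and 4 below, beside 8.13% and 14.9%. Mycn, a growth-promoting transcription factor of limb mesenchyme, had 24.0, 27.5 and 26.9 FPKM in KO libraries, against 21.9, 16.2 and 18.7 FPKM in HET libraries, and Msx2, a homeobox target of BMP signals, 35.2, 30.2 and 26.4 FPKM in KO libraries, against 23.2, 19.4 and 24.0 FPKM in HET libraries. Msx1 averaged 137 ± 24.3 FPKM in KO and 99.0 ± 19.5 FPKM in HET libraries. Irx5, an Iroquois gene of the proximal and anterior limb, lay the other way, at 12.2, 10.5 and 10.1 FPKM in KO libraries, against 14.9, 15.1 and 14.005 FPKM in HET libraries. Of 10 tested posterior Hox genes, which set the segments of the limb, 8 had a positive fold change and 3 lay above without overlap, and 8 without KO replicate 1. Hoxd12 had 77.5, 62.5 and 58.0 FPKM in KO libraries, against 52.96, 48.1 and 53.9 FPKM in HET libraries. The list median was 0.14 for the Hox genes and 0.15 for the patterning factors, and 0.18 and 0.15 without KO replicate 1.

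In the 5 signalling lists 16 of 73 entries, or 21.9%, were without overlap, beside 9.88% of all tested genes, and 0 were called. These lists too were chosen with earlier results of these data known. Rspo2, which overlapped, stands in both the ridge and the Wnt list. Fgf8 encodes a growth factor made by the epithelial ridge at the limb tip, which drives outgrowth, and had 2.97, 2.78 and 2.85 FPKM in KO libraries, against 2.32, 1.15 and 2.08 FPKM in HET libraries and 0.896, 0.913 and 1.39 FPKM in WT libraries. Dusp6, a phosphatase that FGF signals induce, had 42.3, 41.0 and 42.4 FPKM in KO libraries, against 36.7, 29.1 and 33.3 FPKM in HET libraries, a log2 fold change of 0.34. Of 15 FGF receptors and feedback genes 2 lay above and 3 below. Of the 9 ridge genes Cd44, a hyaluronan receptor, had the most negative log2 fold change, -0.68. It had 1.53, 1.87 and 2.20 FPKM in KO libraries, against 3.50, 4.195 and 3.10 FPKM in HET libraries. Among 22 Wnt feedback and antagonist genes, 4 lay below without overlap and 1 above. Those below included Dkk1 and Dkk3, secreted proteins of the Dickkopf family, and Lgr5, an R-spondin receptor. Dkk1 had 5.33, 3.14 and 3.48 FPKM in KO libraries, against 6.06, 5.57 and 6.30 FPKM in HET libraries, and the log2 fold changes of Dkk3 and Lgr5 were -0.44 and -0.58. Axin2, the common readout of Wnt signals, had 36.4, 33.0 and 29.4 FPKM in KO libraries, against 33.4, 27.7 and 28.1 FPKM in HET libraries. Of 16 BMP genes 2 lay below and 1 above. The Hedgehog list had 1 of 11 genes without overlap, and its target Ptch1 had 23.3, 26.8 and 25.1 FPKM in KO libraries, against 27.5, 23.3 and 27.4 FPKM in HET libraries. With KO replicate 1 left out, 2 FGF genes lay above and 4 below, 1 and 8 Wnt genes, 2 and 4 BMP genes, 0 and 4 Hedgehog genes, and 2 and 2 ridge genes, beside 8.13% and 14.9% of all tested genes.

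**Figure D4:**
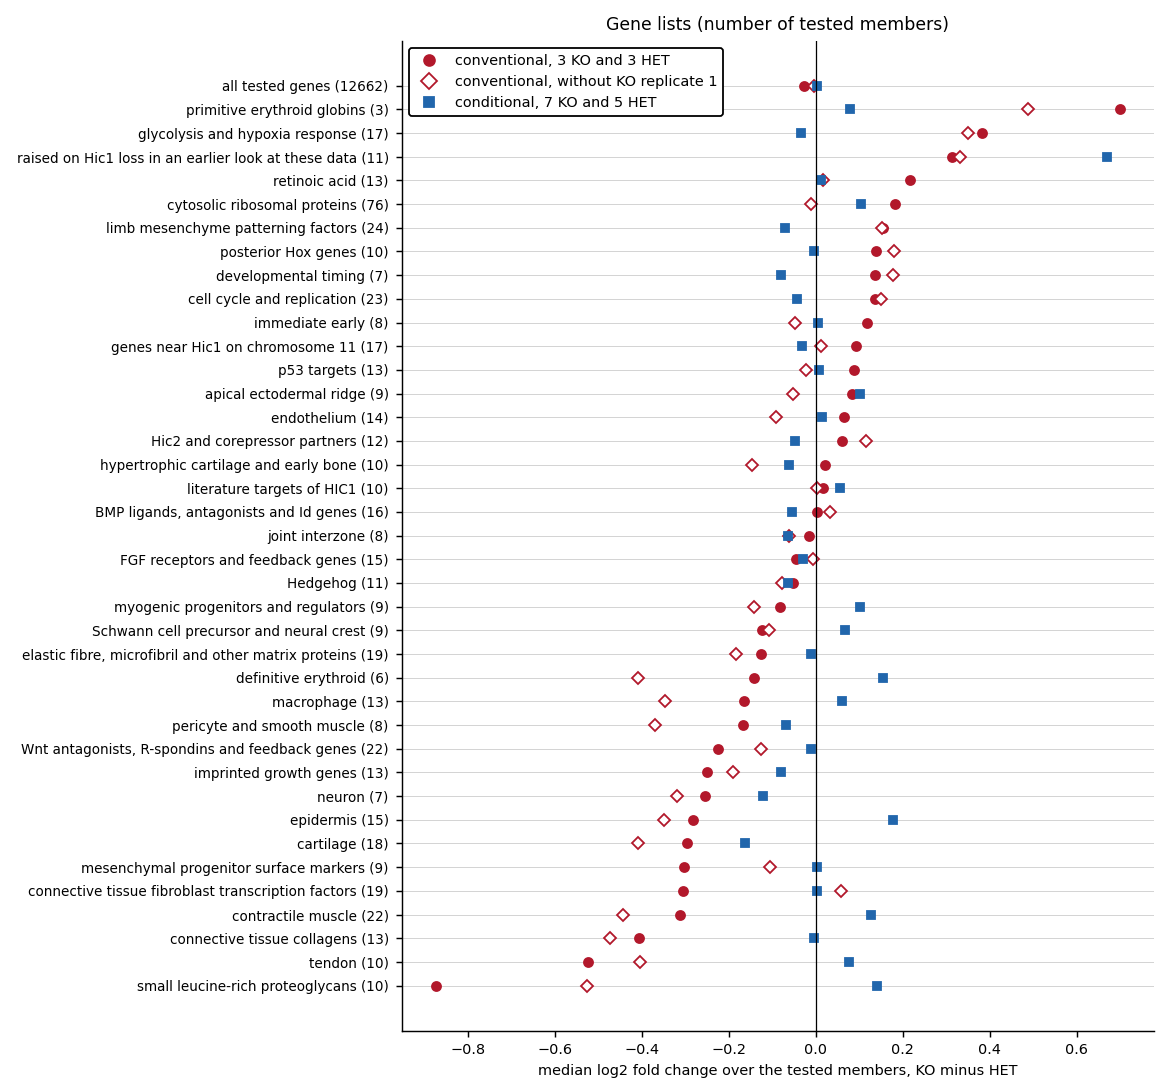
Median log2 fold change of KO over HET (horizontal axis) over the tested members of each gene list, ordered by the conventional value with all 6 libraries (filled circles), beside the value without KO replicate 1 (open diamonds) and the conditional value (squares). All lists and members were chosen with earlier results of these data known, and the list named as raised in an earlier look was chosen on these data. Tendon, muscle, collagen and proteoglycan lists lie at the lower end in the conventional comparison, at -0.87 to -0.31, and at -0.01 to 0.14 in the conditional one.

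Among markers of other cell types the embryonic globin Hbb-bh1 had 69.1, 93.2 and 34.4 FPKM in KO libraries, against 30.1, 18.9 and 27.6 FPKM in HET libraries, without overlap. The adult globin Hbb-b1 had 246, 83.4 and 121 FPKM in KO libraries, against 344, 614 and 245 FPKM in HET libraries, and overlapped through KO replicate 1. The summed FPKM of the 3 primitive globins ran from 2555 to 5590 in KO and from 2840 to 2903 in HET libraries. The 11 definitive erythroid genes with values, of which 6 were tested, summed to 480 to 1012 FPKM in KO and to 755 to 1426 FPKM in HET libraries. Globin genes are near-identical copies whose reads may be split unevenly. Of 15 epidermis genes 12 had a negative fold change and 6 lay below without overlap, beside 6.12% of all tested genes. Without KO replicate 1, 12 lay below, beside 14.9%. Among the 6 was Krt10, a keratin of differentiating skin, at 2.90, 2.86 and 4.16 FPKM in KO libraries, against 6.73, 9.34 and 5.02 FPKM in HET libraries. The summed epidermis list ran from 347 to 535 FPKM in KO and from 384 to 524 FPKM in HET libraries. Among neuron genes Nefm, a neurofilament of axons, had 1.57, 2.08 and 2.34 FPKM in KO libraries, against 3.64, 4.18 and 3.70 FPKM in HET libraries. Stmn2 lay below and Sncg above without overlap. The 13 neuron genes with values, of which 7 were tested, summed to 40.9 to 66.5 FPKM in KO and 53.5 to 62.5 FPKM in HET libraries. Of 9 Schwann cell and neural crest genes 2 lay below, and S100b, a glial gene, averaged 1.89 ± 0.267 FPKM in KO and 3.44 ± 0.794 FPKM in HET libraries. Of 8 mural cell genes Notch3 lay above and Abcc9 below, with Abcc9, a potassium channel subunit, at 0.838 ± 0.369 FPKM in KO and 1.94 ± 0.410 FPKM in HET libraries. Of 13 tested macrophage genes 3 lay below, while Csf1r overlapped. Among the 3 was Lyve1, at 0.306, 0.563 and 0.705 FPKM in KO libraries, against 0.842, 2.47 and 1.33 FPKM in HET libraries. The 14 macrophage genes with values summed to 53.01 to 89.1 FPKM in KO and to 57.7 to 82.7 FPKM in HET libraries. Of 14 endothelial genes 1 lay apart, and Pecam1 had 25.1, 24.7 and 17.3 FPKM in KO libraries, against 24.5, 20.4 and 20.2 FPKM in HET libraries. The genes below without KO replicate 1 numbered 6 of 13 for macrophages, 5 of 8 for mural cells, 4 of 7 for neurons, 4 of 9 for Schwann cells, 3 of 14 for endothelium and 3 of 6 for definitive erythroid cells. The part that cell makeup has in the tendon, muscle and cartilage values was not tested.

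All 17 tested glycolysis and hypoxia genes had a positive fold change, 1 lay above without overlap and 0 were called. That gene was Eno1, an enolase, with 116, 80.0 and 52.5 FPKM in KO libraries, against 44.1, 44.4 and 51.8 FPKM in HET libraries, so that KO replicate 3 lay next to HET replicate 3. Pkm had 864, 757 and 475 FPKM in KO libraries, against 485, 420 and 431 FPKM in HET libraries. The list's median difference between replicates of the same number was 0.42 and 0.63 in pairs 1 and 2 and 0.08 in pair 3. Of 23 cell cycle genes 8 lay above HET without overlap and 0 below, beside 3.76% and 6.12% of all tested genes, and 9 and 0 without KO replicate 1. Among the 8 was Aurka, a mitotic kinase, at 50.7, 44.2 and 38.9 FPKM in KO libraries, against 37.5, 31.6 and 35.2 FPKM in HET libraries, while Mki67 overlapped at 5.17, 10.1 and 41.2 FPKM in KO libraries, against 9.89, 22.0 and 36.9 FPKM in HET libraries. Of 76 ribosomal protein genes 69 had a positive fold change with all 6 libraries and 31 without KO replicate 1, and 0 lay apart. The developmental timing gene Arid3b averaged 4.58 ± 0.653 FPKM in KO and 3.25 ± 0.110 FPKM in HET libraries. The imprinted growth genes Peg10 and Mest had log2 fold changes of -0.32 and -0.25, and Fos, of the immediate early list, one of -0.36. Of 7 timing genes 1 lay apart, of 13 imprinted genes 3 below, and of 8 immediate early genes 1 below. Of 13 p53 targets 0 lay apart, and 2 above without KO replicate 1. Without that library 5 timing genes lay above, and 5 imprinted and 3 immediate early genes below. These counts without KO replicate 1 stand beside 8.13% above and 14.9% below over all tested genes.

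Most genes tied to HIC1 itself overlapped between KO and HET, as did most of all tested genes, of which 9.88% lay apart. Hic2, its paralogue, averaged 7.76 ± 0.609 FPKM in KO and 6.83 ± 1.04 FPKM in HET libraries, with overlap. Of 12 genes of Hic2 and the corepressor partners 1 lay above without overlap. Of 10 tested genes listed in the literature as HIC1 targets 0 lay apart. Without KO replicate 1, 3 of the partner list lay above and 1 below, beside 8.13% and 14.9% of all tested genes. For the targets it was 1 and 1. Among the targets Ccnd1 stood at 119 ± 7.20 FPKM in KO and 98.5 ± 15.5 FPKM in HET libraries (SD, n = 3 each). Sirt1 had 1.41, 12.6 and 15.7 FPKM in KO libraries, against 9.11, 13.9 and 14.7 FPKM in HET libraries, with KO replicate 1 far from the rest. Its log2 fold change was -0.70, and 0.18 without that library. Within 5 Mb of Hic1 on chromosome 11, 136 other genes were tested. Of these, 4 lay above and 4 below without overlap, which is 5.88% beside 9.88% of all tested genes. Smg6, the adjacent gene, which is transcribed towards Hic1 and lies at 74925823 to 75164448, had 27.4, 22.3 and 22.2 FPKM in KO libraries, against 21.7, 18.4 and 19.9 FPKM in HET libraries, a log2 fold change of 0.25. Of the 11 genes of a list raised in an earlier look at these data, which is no independent evidence, 11 had a positive fold change and 4 lay above without overlap.

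Set beside WT, the KO values of most genes without overlap also lay outside WT. Of the 476 genes above HET 321 were above every WT value too, and of the 775 below HET 562 were below every WT value. HET itself lay between KO and WT without any overlap for 29 of the 476 and 28 of the 775. Among the 24 named genes these were Pcp4, Car14 and Slc14a2 on the higher side and Hic1 and Scara5 on the lower. The genes were chosen for KO values apart from HET, which favours KO values apart from WT as well. The share over all tested genes was not counted. These WT libraries take no part in the test of KO against HET.

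The conditional strategy gives the same contrast in other animals, with Cre in both groups. There 8 of 12884 tested genes were called, or 0.0621%, 5 higher (0.0388%) and 3 lower (0.0233%), in a fit of 7 KO and 5 HET libraries. An unadjusted p under 0.05 was reached by 572 genes (4.44%), 331 higher (2.57%) and 241 lower (1.87%). Sst rose in the conditional KO, with 7.79 to 12.3 FPKM and a median of 9.20 in KO libraries, against 1.80 to 3.27 FPKM in HET libraries, a log2 fold change of 1.62 (SE 0.12, limma adjusted p 2.31e-05). Pcp4 rose too, with 15.3 to 31.5 FPKM in KO and 7.40 to 10.5 FPKM in HET libraries, a log2 fold change of 1.12 (adjusted p 0.0210). Slc14a2 rose, with 4.49 to 6.35 FPKM in KO and 1.40 to 3.50 FPKM in HET libraries, a log2 fold change of 0.98 (adjusted p 0.0156). Hic1 fell there by 2.52 on the log2 scale, to 15.1% of the conditional HET mean. With a replicate block 3 genes were called in place of 8, and Pcp4 and Slc14a2 had limma adjusted p of 0.0953 and 0.0890. These 2 genes also passed the threshold or missed it depending on which library was left out.

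The remaining conditional calls had small or mixed values in the conventional forelimbs. AA465934 rose to 139 ± 19.2 FPKM in conditional KO, against 67.4 ± 6.72 FPKM in conditional HET libraries (SD, n = 7 and 5), while the conventional libraries had 12.1, 5.31 and 5.02 FPKM in KO and 6.36, 4.52 and 6.83 FPKM in HET. Smg6 rose by 0.41 on the log2 scale (adjusted p 0.0379). Frzb, a secreted Wnt antagonist of cartilage, fell to 3.32 ± 0.334 FPKM in conditional KO, against 5.40 ± 0.719 FPKM in conditional HET libraries, and had 6.42, 7.35 and 5.73 FPKM in conventional KO and 6.69, 6.71 and 7.75 FPKM in conventional HET libraries. Slfn9, a Schlafen gene on chromosome 11, fell to 3.11 ± 0.226 FPKM in conditional KO, against 5.94 ± 0.885 FPKM in conditional HET libraries, and was scattered in the conventional ones, at 0.373, 1.77 and 8.03 FPKM in KO and 1.80, 4.10 and 6.33 FPKM in HET.

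The other named genes had no call in the conditional forelimbs. Of the 12 higher genes 7 had a positive and 5 a negative conditional fold change, with a median of 0.02 and the 3 calls given above. Aldh1a2 stood at 62.0 ± 18.1 FPKM in conditional KO and 64.4 ± 21.9 FPKM in conditional HET libraries (SD, n = 7 and 5), a log2 fold change of -0.03, and Cyp26b1 at 17.8 ± 4.84 and 22.7 ± 6.57 FPKM in the same order, one of -0.32. Of the 11 lower genes other than Hic1, 10 were tested, 6 positive and 4 negative, with a median of 0.06 and 0 calls. Scara5 stood at 4.14 ± 0.702 FPKM in conditional KO and 5.25 ± 2.04 FPKM in conditional HET libraries, and Matn3 at 5.70 ± 2.19 and 5.89 ± 1.94 FPKM. Conditional KO and HET column names carry letters too (NZ, OA or OB), whose meaning is not given. They were not fitted as a batch term. Scara5 had 6.48 and 8.14 FPKM in the NZ and OA HET libraries and 3.42, 4.725 and 3.49 FPKM in the OB ones. In the same order Aldh1a2 had 40.7 and 41.0 FPKM against 86.9, 76.6 and 76.7 FPKM. Dcn had 155 and 181 FPKM against 51.2, 81.9 and 77.8 FPKM. For Pcp4 and Osgep the HET values overlapped between these letters. In KO libraries the NZ and OB values of Scara5, Aldh1a2 and Dcn overlapped. What the letters contribute to the conditional fold changes, also those near 0, was not tested. The muscle list, negative for 22 of 22 genes in the conventional comparison, was positive for 22 of 22 in the conditional one, with a median of 0.13 and 0 calls. Members of a list that share a tissue move together within a library, so such a count is not a count of independent genes. Tendon and proteoglycan genes had conditional medians of 0.08 and 0.14, and cartilage one of -0.16. Meox1 and Nefm had log2 fold changes of -0.56 and -0.38 in the conditional comparison, beside -0.49 and -0.70 in the conventional one, with conditional adjusted p of 0.429 and 0.923. The difference between the strategies was not tested.

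**Figure D5:**
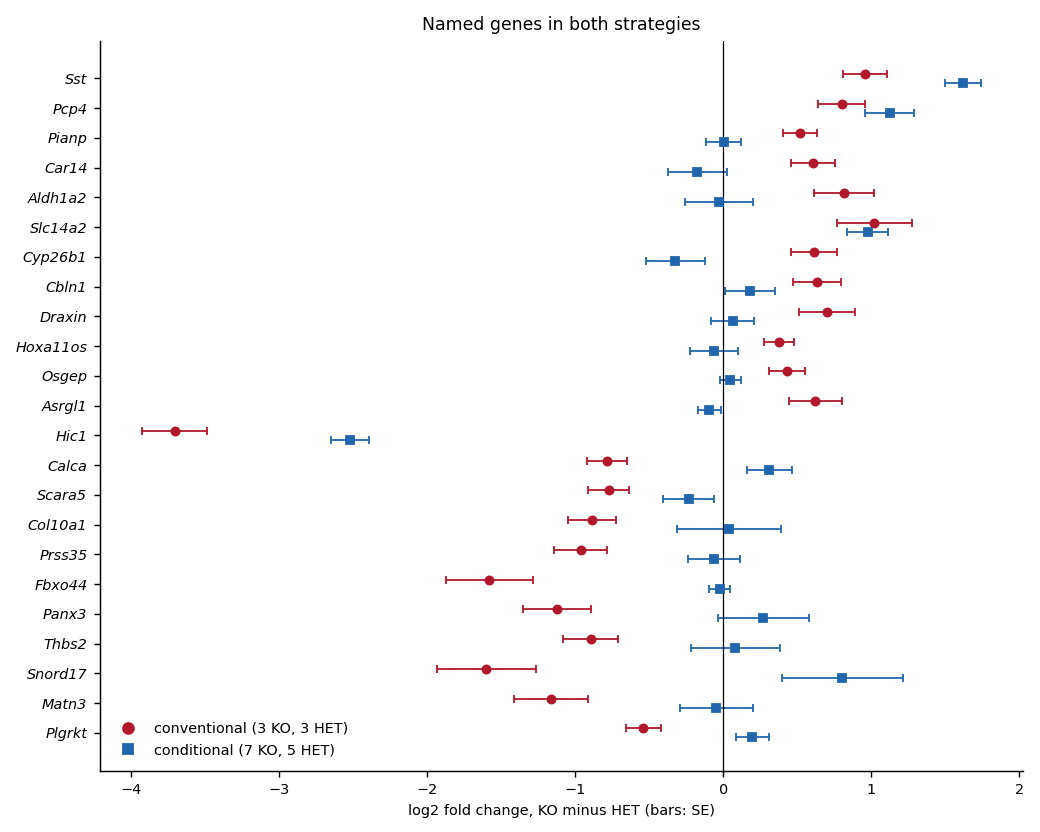
Log2 fold change of KO over HET with its SE (horizontal axis) for the named genes tested in both strategies, conventional as circles (3 KO and 3 HET) and conditional as squares (7 KO and 5 HET). Sst, Pcp4, Slc14a2 and Hic1 lie on the same side in both, at 0.80 to 1.62 for the first 3, while most of the other squares lie near 0.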

How the data were processed

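Forelimbs of E13.5 mouse embryos were homogenised in RNAzol and polyA RNA was sequenced with a TruSeq stranded mRNA kit, per the labels. The deposited values are FPKM, made by the authors with TopHat2, Bowtie2 and Cufflinks after bcl2fastq, on mm10, per the submitters' processing notes. Versions, annotation and strand setting are not given in the sources used here. Each of the 2 tables, 1 per strategy, lists 24340 genes. Dates in place of 27 symbols of the conditional table were restored from the other table. Positions and transcript lengths come from GENCODE M21, with a length for 99.5% of tested genes. Promoters come from RefSeq, GRCm38.p6.

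Values were transformed to log2(FPKM + 1), and those genes averaging 1 FPKM or more across the 6 libraries were tested with limma 3.58.1 in R 4.3.3 (lmFit, eBayes with a mean trend), KO against HET, two-sided, Benjamini-Hochberg over all tested genes, called at an adjusted p under 0.05. The conditional table was fitted on its own. Depth is unknown, so low values carry a counting error that cannot be given. Fold changes on this scale understate changes of low genes. The test was tried on simulated data. Deviations from the group mean had correlations of 0.651, 0.241 and 0.616 between same-numbered KO and HET libraries. Libraries of unlike number were not compared, so these values do not show that the numbers mark pairs. The fit with a replicate block is given where it matters.

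Named genes are Hic1, all called genes, the 12 per direction with the smallest p and no overlap (sex-linked, predicted and pseudogenes left out), and from each of the gene lists its defining members and up to 4 with the smallest p. AA465934, Frzb and Slfn9, called in the conditional strategy, and Snora16a and Snora65, called when a library was left out, fall outside this rule and were chosen after their values were seen. Members and lists were chosen with earlier results of these data known. Of 541 list entries 530 matched a symbol, 3 by another name. The 9 mitochondrial symbols listed matched none. Alternatives covered the pseudocount, the filter, the block, a spread shared over 3 groups, array weights, scaling, the column letters, the trend, each library left out and, added after seeing the data, a sex term.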

Additional observations from a re-analysis of the deposited data

Results flagged for a closer look

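Values of 36 genes in the 2 conditional groups were checked for a library far from the others of its group, 72 group checks in all, of which chance flags about 1 in 20. In 4 of them a library stood apart. Col10a1 in conditional HET replicate 2 was 4.22 FPKM, where the other 4 libraries had 0.342 to 1.42. Nefm in conditional HET replicate 2 was 4.45 FPKM, where the others had 2.42 to 2.78. Fbxo44 in conditional KO replicate 2 was 5.38 FPKM, where the others had 6.85 to 7.55. AA465934 in conditional KO replicate 6 was 179 FPKM, where the others had 121 to 142. Groups of 3, among them all conventional ones, were not checked in this way. No gene of these 36 had every conventional KO library on one side of the HET mean and every conditional KO library on the other.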

How the results depend on the processing

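Depth is unknown, KO replicate 1 stands apart and sex differs between the groups, so 3 against 3 libraries carry little margin. The fold change of Hic1 was negative under all alternatives, while its call was not stable. It was -4.30 (adjusted p 0.0713) with a pseudocount of 0.1, -3.71 (0.0577) without the filter, -3.61 (0.203) with quantile normalisation, -3.62 (0.0788) with equal medians and -3.64 (0.207) with the sex term. Under each of these 5, 0 genes were called in place of 1. With a replicate block, the column letters, 3 groups sharing the spread, no trend or a minimum of 5 FPKM, 1 gene was called. Leaving out 1 library gave 0 to 1 calls and -3.92 to -3.58 for Hic1; without KO replicate 2 the call was Snora16a and without KO replicate 3 Snora65. Limma's array weights gave 3421 calls, 1695 higher and 1726 lower, with weights from 0.029 for KO replicate 1 to 410 for KO replicate 2. Genes at an unadjusted p under 0.05 split 66 higher and 211 lower in the fit as given, and 117 and 129 after quantile normalisation, 63 and 111 with equal medians, 281 and 515 with the column letters, and 175 and 400 with 3 groups. Without KO replicate 1 there were 863, and between 72 and 460 without another library. Of 1573 values of 94 named genes besides Hic1, 82 passed the threshold, all with array weights, and 35 changed sign, over 15 genes that overlap between KO and HET, 12 of them without KO replicate 1. With 1 library left out, log2 fold changes ran from -0.15 to 0.41 for AA465934, -0.30 to 0.19 for Col2a1, -0.28 to 0.19 for Csf1r, -0.031 to 0.30 for Gdf5, -1.36 to 0.030 for Mki67, -0.14 to 0.35 for Myod1, -0.029 to 0.12 for Osr1, -0.40 to 0.036 for Pdgfra, -0.063 to 0.19 for Pecam1, -0.16 to 0.23 for Scx, -1.22 to 0.18 for Sirt1, -1.27 to 0.087 for Slfn9 and -0.10 to 0.14 for Sox9. Array weights gave -0.043 for AA465934, -0.35 for Csf1r, 0.049 for Frzb, -0.050 for Myod1, 0.11 for Pdgfra, 0.082 for Ptch1, -0.039 for Scx and 0.090 for Sox9. Equal medians gave 0.078 for Col2a1, 0.035 for Ptch1 and 0.086 for Sox9, quantile normalisation 0.062 for Frzb and -0.026 for Osr1, a pseudocount of 0.1 -0.003487 for Csf1r, and the sex term 0.17 for Col2a1. The cause was not tested. Of 663 list medians 60 moved by more than the SD of the 3 pairs. In the conditional strategy the 8 calls became 5 with a minimum of 5 FPKM, 3 with a replicate block, and 4 to 15 with 1 library left out.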
